A study of Homo sapiens with 4 samples.

Results

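OVSAYO cells in which Sp1 had been silenced and which were then exposed to CoCl2 were compared with CoCl2-exposed OVSAYO cells that had received a non-specific siRNA. OVSAYO is a human cell line established from an ovarian clear cell carcinoma (CCC). The siRNA against Sp1 (Sp1-si) was a pooled reagent and the control (NS-si) a negative control siRNA, both given by lipofection in RPMI1640 medium. Per the labels, 40 h of culture followed before the medium was changed and 0.5 mM CoCl2 was added for 4 h, while a legend of the study gives a shorter culture and its methods name another supplier and transfection reagent for Sp1. Total RNA of each culture went onto 1 single-colour Agilent whole human genome array, so the comparison Sp1-si → CoCl2 against NS-si → CoCl2 used 2 of the 4 arrays of the series. The remaining pair, Sp1-si and NS-si cells without CoCl2, is given beside it and shares neither array with it. A single reagent was used against Sp1, so effects of that reagent on other transcripts cannot be told apart from effects of Sp1 loss, and there is 1 array per condition, so no test was possible and differences between cultures were not measured. Of 41000 probes, 30514 (74.4%) were well above background on both CoCl2 arrays, and these were the members of the comparison. They represent 14403 of the 17721 genes with a symbol on the array.

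Sp1 is a ubiquitously expressed zinc finger transcription factor that binds GC boxes, short GC-rich elements found in the promoters of very many genes, housekeeping and regulated genes alike. Its relatives of the SP and KLF families recognise similar elements and can replace or oppose it. CoCl2 stabilises the hypoxia-inducible factors (HIFs) in normal oxygen by inhibiting the hydroxylases that mark them for degradation, and as a metal salt it also evokes metal and oxidative stress responses. The question of the study behind this comparison was which genes require Sp1 under a hypoxia-like stimulus in CCC cells.

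The targeted transcript was low on the array labelled Sp1-si → CoCl2. The SP1 probe A_23_P366312, printed in 10 spots, gave a processed signal of 430 in NS-si → CoCl2 cells and 38.8 in Sp1-si → CoCl2 cells, and of 553 and 39.3 in the NS-si and Sp1-si cells without CoCl2. The log2 difference under CoCl2, each array scaled to its 75th percentile, was -3.87 ± 0.12 (SD between spots), a 14.6-fold lower level. The other SP1 probe, A_23_P53397, gave -4.29. Both Sp1-si arrays were therefore low and both NS-si arrays high, with no overlap.

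All 7 CCC markers examined and the 7 epithelial markers with a symbol on the array were well above background on both CoCl2 arrays. PTPRC, PECAM1 and COL3A1, which define leukocytes, endothelium and fibroblasts, were not. Well above background on both were 4 of 5 leukocyte, 1 of 5 endothelial, 2 of 4 fibroblast and 2 of 3 red cell markers, with summed signals of 945 to 1224, 50.2 to 66.1, 433 to 585 and 128 to 157 on the 2 arrays. Array signals at the 75th percentile were 977 for NS-si → CoCl2 and 1285 for Sp1-si → CoCl2, and 0 spots were saturated. For probes printed in 10 spots, the median SD of the log2 difference between spots was 0.17 among the 47 dimmest and 0.061 among the 47 brightest probes. That spread is technical only.

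Differences were widespread. Counting a log2 difference of at least 1, which is 2-fold, 2794 probes were lower (9.16%) and 1856 were higher (6.08%) in Sp1-si → CoCl2 cells. Taking the brightest probe of each gene, 1099 genes were lower (7.63%) and 1024 higher (7.11%). Whether the lower or the higher probes were more numerous depended on the scaling, since median scaling gave 2268 lower and 2356 higher probes, quantile normalization 2345 and 2187, and unscaled signals 1276 and 4278. The largest share of probes, 58.5%, lay within 0.5 of 0, the median was -0.06 over probes and -0.01 over genes, and the range was from -4.79 to 4.68. At least 4-fold lower were 332 probes and at least 4-fold higher 247 probes. When the probes were ranked by signal into 5 equal classes, the dimmest class had a median of -0.17 and the brightest a median of 0.03, so dim probes tended slightly to the lower side.

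**Figure D1:**
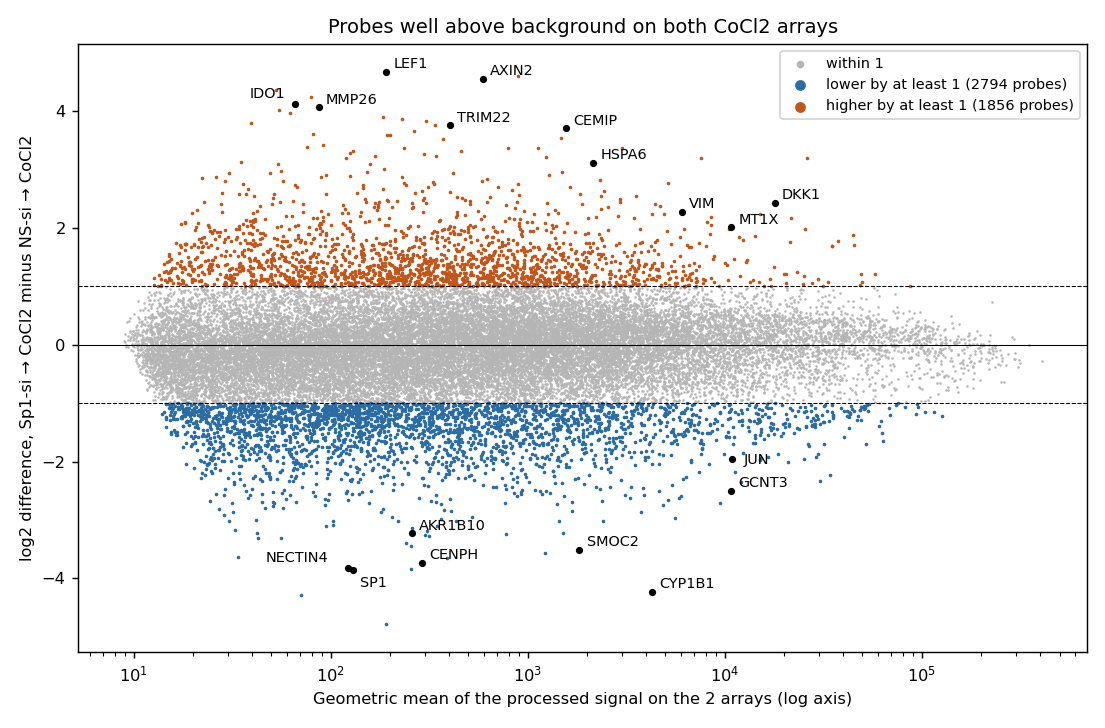
Log2 difference between Sp1-si → CoCl2 and NS-si → CoCl2 cells (vertical axis) against the geometric mean of the processed signals of the 2 arrays (horizontal axis, log scale) for the 30514 probes well above background on both, 1 point per probe, with dashed lines at -1 and 1. The 2794 lower (blue) and 1856 higher (orange) probes occur at every signal, SP1 and CYP1B1 are near -4, and LEF1 and AXIN2 lie above 4.

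Where a gene had at least 2 probes on both arrays, all differing in the same direction, the 15 lowest and 15 highest by the probe with the smallest difference are named here. CYP1B1, a cytochrome P450 inducible through the aryl hydrocarbon receptor, led the genes with 1 probe, at 16167 in NS-si → CoCl2 and 1130 in Sp1-si → CoCl2 cells, a log2 difference of -4.23. Without CoCl2 its signals were 22987 and 3396, a difference of -2.71, so the gap was wider with CoCl2. ENDOU, an endoribonuclease named here after its values were seen, had the lowest probe of all, at -4.79. After SP1, the lowest genes with several probes included ST3GAL1, a sialyltransferase that caps O-glycans, with signals of 881 and 136 in NS-si → CoCl2 and Sp1-si → CoCl2 cells and differences of -3.10 and -3.25 from its probes. AKR1B10, an aldo-keto reductase that detoxifies carbonyls, gave 691 and 96.8, and its probes -3.23 and -3.02. The membrane peptidase CPM (carboxypeptidase M) went from 8817 to 1585, with -2.87 and -2.62. For each of these 3 genes both Sp1-si arrays were below both NS-si arrays.

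The other multi-probe genes on the lower side were between -3.02 and -2.20 by their brightest probe. They were SFTA2, TMBIM1, PCK2 (the mitochondrial phosphoenolpyruvate carboxykinase), GCNT3 (a mucin core N-acetylglucosaminyltransferase), NAPSA (the aspartic protease napsin A), PLXND1 (a semaphorin receptor), LPGAT1 (a phospholipid acyltransferase), EREG (epiregulin, an EGF receptor ligand), GPX8, MINDY2 and ANKEF1. PLXND1 had the widest gap of them, with 3563 in NS-si → CoCl2 and 579 in Sp1-si → CoCl2 cells and a difference of -3.02. EREG and MINDY2 were more than 1 log2 unit further down with CoCl2 than without it, at -2.31 against -1.08 for EREG and -2.44 against -1.22 for MINDY2. Of the genes with 1 probe, DUSP13A (a dual-specificity phosphatase) was at -3.85, NECTIN4 (a cell adhesion molecule) at -3.82, CENPH (a kinetochore subunit) at -3.74, DNALI1 (an axonemal dynein chain) at -3.64, SMOC2 (a secreted matricellular protein) at -3.51, ABCA12 (a lipid transporter) at -3.44 and CILP at -3.32.

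On the higher side, TRIM22, an interferon-inducible ubiquitin ligase, had signals of 94.9 in NS-si → CoCl2 and 1698 in Sp1-si → CoCl2 cells, and both of its probes gave 3.76 or 3.77. CEMIP, which binds hyaluronan and takes part in its breakdown, gave 377 and 6492, with differences of 3.71 and 3.87. Its signals without CoCl2 were 948 and 5186, a difference of 2.51, so the gap was wider with CoCl2 by 1.20. VIM, the intermediate filament protein of mesenchymal cells, gave 2392 and 15270, with 2.28 and 2.64. Next to these stood MME (neprilysin), EMP2, HPGD (the prostaglandin-inactivating dehydrogenase), IFIT5, MALT1 (a paracaspase of NFκB signalling), ETV1 (an ETS transcription factor), COL12A1, AKTIP, TLN1 (talin, which links integrins to actin), GDPD5, FSCN1 (fascin, an actin bundler) and DYNC1I1, at 2.03 to 2.60 by the brightest probe.

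Genes with 1 probe reached further up. IDO1, the interferon-inducible enzyme that degrades tryptophan, was close to background in NS-si → CoCl2 cells at 13.7 and gave 316 in Sp1-si → CoCl2 cells, a difference of 4.13. MMP26, a matrix metalloproteinase, was at 4.07, NR2F1, an orphan nuclear receptor, at 3.97, CDH15, a cadherin of muscle, at 3.80, TREM1, an innate immune receptor, at 3.67, ARG2, the mitochondrial arginase, at 3.52 and SRGAP3, a regulator of small GTPases, at 3.43. SUSD5 stood out among them by the pair without CoCl2. Its signals were 20.3 and 325 with CoCl2, a difference of 3.61, against 14.5 and 23.0 without it, a difference of 0.72.

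**Figure D2:**
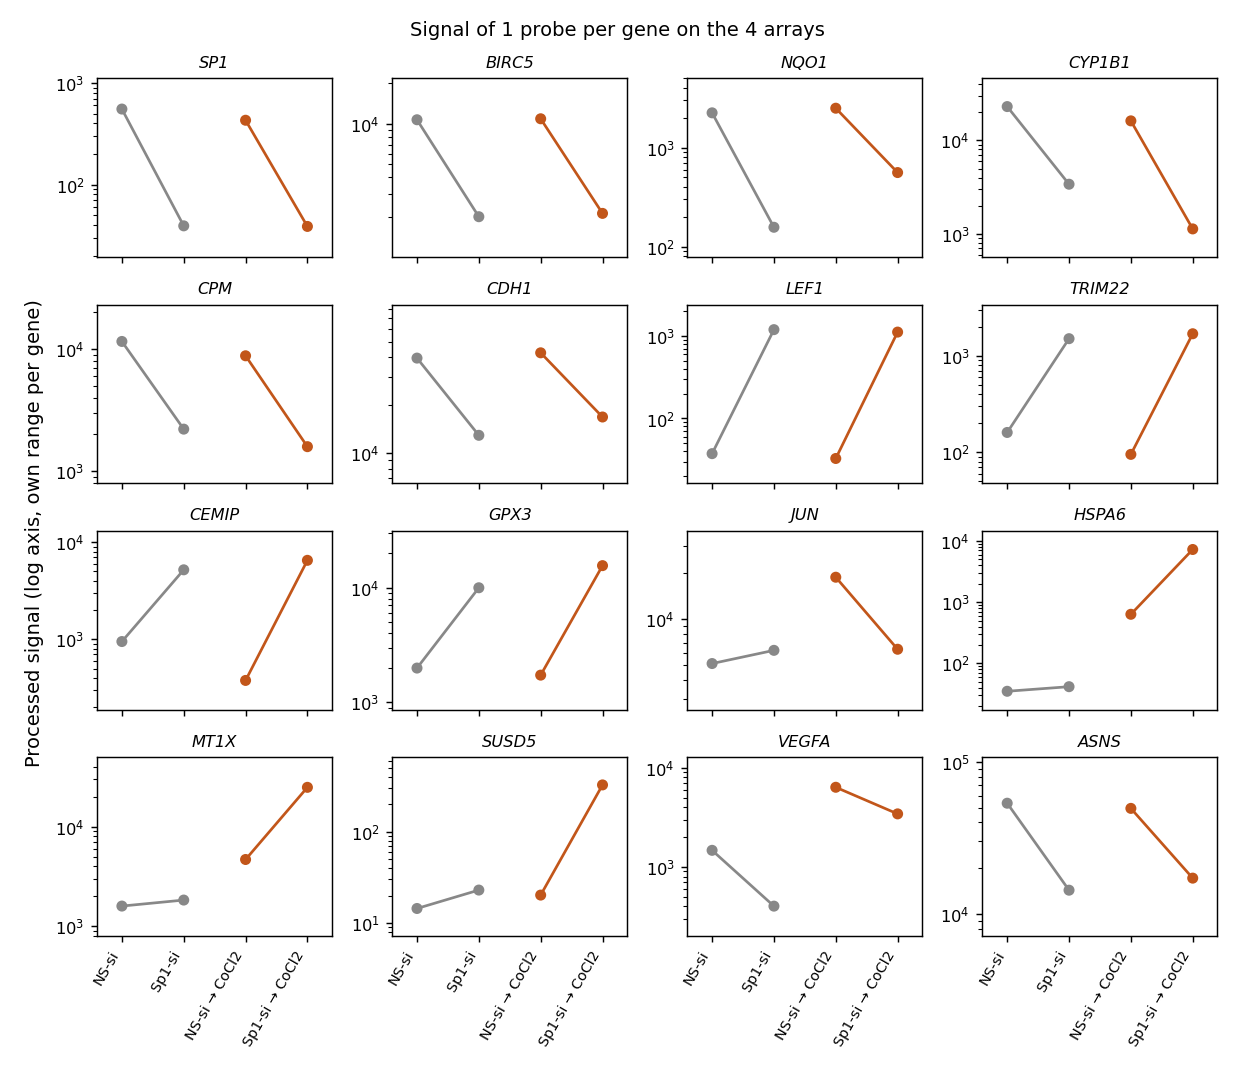
Processed signal (vertical axis, log scale with its own range in each panel) of 1 probe for each of 16 genes on the 4 arrays, with grey points for cells without CoCl2, orange points for cells with CoCl2, and lines that join NS-si to Sp1-si. SP1, BIRC5, NQO1, CYP1B1, CPM and CDH1 are lower and LEF1, TRIM22, CEMIP and GPX3 higher after Sp1 silencing in both pairs, whereas JUN, HSPA6, MT1X and SUSD5 differ by at least 1 on the log2 scale only in the pair with CoCl2.

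Promoter letters were examined because Sp1 binds GC boxes. In the RefSeq promoter table (GRCh38.p14; from 250 bases before to 50 after the start), 11482 of the measured genes had an entry, 855 of them lower and 814 higher by at least 1. The GC box core GGGCGG on either strand was found in 65.4% of the promoters of lower genes, 66.1% of genes within 1, 70.9% of higher genes and 44.6% of all 27305 promoters in the table. At least 3 matches occurred in 27.1% of the lower, 25.8% of the intermediate and 36.7% of the higher genes. Genes at least 4-fold lower held the core in 64.3% and those at least 4-fold higher in 64.5% of promoters. At least 3 matches occurred in 24.3% of the former and 34.7% of the latter. In the genes that differed most, the larger share among higher genes was thus seen for at least 3 matches but not for any match. None of these shares was tested against another. The hypoxia response element core, ACGTG or GCGTG on either strand, was found in 58.2% of the lower, 60.7% of the intermediate and 59.5% of the higher genes, against 48.4% of all promoters. A match gives letters in a window and does not show binding.

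To show what such promoters look like, the 150 bases before the start are printed for the first 3 lower genes of the order above that have an entry and a GC box within this stretch, SP1 itself left out, with GGGCGG or its reverse complement CCGCCC in capitals. CPM lies at chr12:68933200-68933349 on the minus strand with 3 matches in this stretch, TMBIM1 at chr2:218292504-218292653 on the minus strand with 2, and PCK2 at chr14:24094161-24094310 on the plus strand with 2 (GRCh38.p14).
CPM: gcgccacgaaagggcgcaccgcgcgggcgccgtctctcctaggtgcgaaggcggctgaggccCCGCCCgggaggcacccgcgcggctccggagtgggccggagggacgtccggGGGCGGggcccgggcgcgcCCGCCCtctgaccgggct
TMBIM1: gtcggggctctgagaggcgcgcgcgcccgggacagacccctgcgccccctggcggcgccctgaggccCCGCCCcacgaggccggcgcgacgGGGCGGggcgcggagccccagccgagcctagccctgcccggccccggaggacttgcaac
PCK2: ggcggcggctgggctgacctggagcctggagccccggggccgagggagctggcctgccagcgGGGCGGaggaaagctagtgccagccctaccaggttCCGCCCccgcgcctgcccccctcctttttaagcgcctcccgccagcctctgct
The first 3 higher genes by the same rule were CEMIP, HPGD and MALT1, since MME and EMP2 have matches in the full window but not in this stretch. CEMIP lies at chr15:80779220-80779369 on the plus strand with 1 match, HPGD at chr4:174522489-174522638 on the minus strand with 1, and MALT1 at chr18:58671315-58671464 on the plus strand with 5 (GRCh38.p14).
CEMIP: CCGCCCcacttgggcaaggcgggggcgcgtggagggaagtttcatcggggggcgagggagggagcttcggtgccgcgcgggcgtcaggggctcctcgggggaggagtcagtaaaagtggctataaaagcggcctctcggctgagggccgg
HPGD: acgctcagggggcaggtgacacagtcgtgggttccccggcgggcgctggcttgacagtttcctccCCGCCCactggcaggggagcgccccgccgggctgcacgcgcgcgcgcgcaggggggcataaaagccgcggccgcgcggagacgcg
MALT1: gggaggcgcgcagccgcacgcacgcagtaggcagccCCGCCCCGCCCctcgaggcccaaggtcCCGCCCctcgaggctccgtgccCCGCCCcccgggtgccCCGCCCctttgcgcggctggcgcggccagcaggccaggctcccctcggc
Over the full window CPM and MALT1 had 6 matches each, and CPM was lower by 2.87 on the log2 scale and MALT1 higher by 2.31. These genes were chosen for holding the motif, so they do not show how often it occurs.

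Of the SP and KLF factors, 18 of 21 were measured under CoCl2, 3 were lower and 3 higher by at least 1, and the median was 0.15, against 7.63% of all genes lower and 7.11% higher. The same shares over all genes apply to the counts of every list below. The 3 lower factors were SP1, which was the target of the siRNA and the lowest by far, SP5, whose brightest probe gave -1.83 but whose remaining probes gave 4.37 and 4.03, and KLF16. SP3, the closest relative of SP1, which competes for the same GC boxes, was at 0.85, below the 2-fold mark, but at 1.22 without CoCl2. SP4 was at 0.12 with and 0.90 without CoCl2. Under CoCl2, SP2 was 2.14-fold higher. KLF11 and KLF12 were higher under CoCl2 by 1.42 and 1.19 on the log2 scale. KLF11, however, had another probe at 0.56. KLF16 was lower by its brightest probe (-1.13) but at -0.16 by the other, and KLF6, a tumour suppressor whose hypoxic induction the study followed, ranged from -0.78 to 0.0023 over its 4 probes.

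Genes long known to have Sp1 sites in their promoters leaned to the lower side. Of 22 measured members, 6 were lower and 0 higher by at least 1, with a median of -0.49, against -0.12 without CoCl2. BIRC5 (survivin, an inhibitor of apoptosis needed in mitosis) had signals of 10897 and 2144, a difference of -2.74 ± 0.052. The EGF receptor gene EGFR gave 2089 and 1050, a difference of -1.39 ± 0.10, VEGFA was at -1.29 and MAOA (monoamine oxidase A) at -1.22. JUN, the AP-1 subunit, gave 18800 and 6373, a difference of -1.96 ± 0.045, whereas without CoCl2 its signals were 5142 and 6268, a difference of 0.34. F7, coagulation factor VII, was dim at 20.0 and 11.9, a difference of -1.14 with an SD of 0.17 typical of such probes, against 0.061 without CoCl2. JUN and F7 were thus low on the Sp1-si → CoCl2 array relative to NS-si → CoCl2, but not in Sp1-si cells without CoCl2. Other classic Sp1-site genes stayed within 1, among them TYMS (0.24), CDKN1A (0.10) and TERT (-0.06), and ICAM1 was not well above background on both arrays.

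Genes that depend on hypoxia response elements did not shift as a group under CoCl2. The median of 31 measured genes was -0.0004, with 4 lower and 1 higher, against -0.24 without CoCl2. Of all genes, 7.63% were lower and 7.11% higher under CoCl2. Glycolytic and pyruvate enzymes differed among themselves. LDHA was at -0.05, PGK1 at 0.13, ENO1 at -0.07, PDK1 at 0.27 and the hexokinase HK1 at 0.49, whereas HK2 was at -0.42 by its brightest probe and at -2.40 by another. The HIF hydroxylase EGLN3 was at 0.37. Among the lower genes, VEGFA (vascular endothelial growth factor A) gave 6344 and 3422, and all 4 of its probes were lower, between -2.25 and -1.29. Its brightest probe was lower without CoCl2 too, at -1.81. With CoCl2 that probe rose by 2.34 in NS-si and by 2.86 in Sp1-si cells, so its rise was not smaller after Sp1 silencing. ERO1A, the oxidase of the endoplasmic reticulum, was lower by both probes, at -1.40 and -1.27, and ALDOA was at -1.03. MXI1, a MYC antagonist, was higher, at 1.38, with signals of 1185 and 4060. HMOX1 (haem oxygenase), which is induced by CoCl2, was at -0.31 ± 0.12 and at 0.09 without scaling.

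Feedback and target genes of the Wnt pathway, which are switched on when β-catenin joins TCF/LEF factors on DNA, had a median of 1.33 over 12 measured genes. Of these, 7 were higher and 2 lower by at least 1, and the median was between 0.61 and 1.72 under the scalings and background correction tried. LEF1, itself a β-catenin partner, had the highest value of all probes, 4.68, with signals of 32.8 and 1109. AXIN2, the feedback scaffold of the destruction complex, gave 106 and 3295, a difference of 4.56, while its dim probe gave 1.34. DKK1, a secreted antagonist, was at 2.44, with signals of 6698 and 47799, and the factor TCF7 at 2.06. The receptor TNFRSF19 was at 2.26 by a dim probe, with signals of 7.85 and 49.5, but its other probe, well above background on NS-si → CoCl2 alone, ran the opposite way, with 26.4 and 2.22. RNF43 and ZNRF3, the ligases that remove Frizzled receptors, were at 1.53 and 1.12. The pair counted as lower were read differently by their probes. For SP5, a Wnt-induced member of the SP family, the brightest probe gave -1.83 but the remaining probes 4.37 and 4.03, and for NKD2 the brightest gave -1.58 and the other 0.073. Without CoCl2 the median of the list was 1.21.

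Targets of NRF2, the factor that drives antioxidant and detoxifying genes, had 11 of 24 measured members lower and 0 higher, with a median of -0.80. Besides AKR1B10, the quinone reductase NQO1 was at 2502 in NS-si → CoCl2 and 560 in Sp1-si → CoCl2 cells, a difference of -2.56. ABCC2, an export pump for conjugates, was at -1.84, SLC7A11, the cystine transporter, at -1.78 with its other probes at -2.57 and -1.59, AKR1C1 at -1.72 and GCLC, the catalytic subunit of glutathione synthesis, at -1.60. CES1, AKR1C3, SRXN1, ME1 and TXNRD1 followed between -1.52 and -1.02. Members of the AKR1C group are near-identical in sequence, and their probes may share transcripts. NQO1, GCLC and TXNRD1 were lower by less with CoCl2 than without it, where they stood at -3.79, -2.52 and -2.26. The median of the list without CoCl2 was -1.06.

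Mitotic genes formed the other lower group. Of 28 measured mitotic and kinetochore genes, 26 were below 0, 10 were lower by at least 1 and 0 were higher, with a median of -0.83, and -1.13 without CoCl2. CENPH gave signals of 921 and 90.8. The kinetochore microtubule-binding subunits NUF2, SPC25 and NDC80 were at -2.22, -1.50 and -1.47, topoisomerase TOP2A at -1.92, the mitotic kinases AURKB and CDK1 at -1.64 and -1.56, and the spindle proteins DLGAP5 and ASPM at -1.49 and -1.30. MKI67, the proliferation marker, was at -0.96, and AURKA was on the other side of 0, at 0.29. DNA replication and G1/S genes did not share this shift. Their median was -0.02 over 38 measured genes, with 4 lower and 0 higher, against 7.63% of all genes lower and 7.11% higher. CDC45, a subunit of the replicative helicase, was lowest at -1.50, followed by MCM10 at -1.06, E2F1 at -1.02 on the log2 scale and GINS4, 2.01-fold lower, the last contradicted by another probe higher by 1.07 on the log2 scale, whereas PCNA was at 0.34 and MCM2 at 0.03. Both proliferation lists were measured in bulk RNA, where fewer cells in mitosis and less RNA per cell cannot be told apart.

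Interferon-stimulated genes were higher as a group. Of 27 measured, 10 were higher and 0 lower by at least 1, 22 were above 0, and the median was 0.64, close to 0.67 without CoCl2. Apart from IDO1, the membrane protein IFITM1, which restricts viral entry, gave 6043 and 37794, a difference of 2.25. BST2 (tetherin) was at 2.20 and the transcription factor IRF1 at 1.95, and IFIT2, OASL, IFI6, IFIH1, RIGI and IFIT3 were between 1.08 and 1.29. The antiviral GTPase MX1 (0.06) was not among them. All 15 genes of HLA class I and antigen processing were measured and 4 were higher. These 4 were subunits of the immunoproteasome or its activator, PSMB10 at 1.95, PSMB8 at 1.53 and PSME1 at 1.08 on the log2 scale and PSMB9, 2.15-fold higher, while HLA-B was at -0.85 and B2M at 0.12. The median was 0.43 and was 0.41 without CoCl2.

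Metallothionein genes, which code for small metal-binding proteins induced through the metal-sensing factor MTF1, differed mostly where CoCl2 was present. All 10 were measured, 7 were higher by at least 1 and 0 lower, and the median was 1.71 with and 0.23 without CoCl2. MT1X had signals of 1591 and 1828 in the NS-si and Sp1-si cells without CoCl2, and of 4677 and 24862 in those with it. The Sp1-si → CoCl2 array therefore stood above all others, by 2.01 over NS-si → CoCl2, against 0.25 for the pair without CoCl2. MT1H, MT1E, MT1F, MT2A, MT1G and MT1B were between 1.52 and 1.99. Of these, MT1F was also higher by 1.09 without CoCl2. The signals of MT1H (4622 and 24165) were almost those of MT1X, and these genes are so alike that their probes may read the same transcripts, so the list counts less than 10 separate observations.

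A heat shock gene behaved in the same way. HSPA6, an inducible HSP70 that is nearly silent in unstressed cells, had signals of 35.0 (NS-si) and 41.5 (Sp1-si) without CoCl2 but 634 and 7261 with it, a difference of 3.12 with and 0.30 without CoCl2. Its close HSP70 relatives may hybridise to the same probe. The list as a whole did not shift, with 3 lower and 2 higher of 18 and a median of 0.02. Over all genes, 7.63% were lower and 7.11% higher. The co-chaperone DNAJB4 was lower by both probes, at -1.63 and -1.80, the collagen chaperone SERPINH1 was at -1.14 and HSPA4L at -1.24, and CRYAB (αB-crystallin) was higher at 1.25. HSPA1A (0.26) and DNAJB1 (0.56) stayed within 1.

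Among 28 immediate early genes, the first to respond to growth factors and stress, 1 was lower and 1 higher, with a median of 0.02. The lower gene was JUN and the higher one its AP-1 partner FOS, with signals of 777 and 2164, a difference of 1.08, against 0.072 without CoCl2. EGR1 (0.33), ATF3 (0.74) and MYC (-0.01) did not reach 2-fold. Of 20 NFκB targets, 2 were lower and 2 higher, with a median of -0.10, against 7.63% of all genes lower and 7.11% higher. BIRC3 (cIAP2) gave 11953 and 5503, a difference of -1.51, and CXCL8 (interleukin 8) was dim, with 40.0 and 24.2, at -1.12. The cytokine genes TNF and IL6 were higher, at 1.36 and 1.24 ± 0.095, although the other TNF probe gave 0.48.

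Amino acid and lipid synthesis genes were mixed. Of 19 ATF4 and unfolded protein response genes, 15 were below 0 and 2 were lower by at least 1, with a median of -0.20. These were ASNS (asparagine synthetase), with 49456 and 17216 and a difference of -1.92, and PHGDH, the first enzyme of serine synthesis, at -1.28. In the cholesterol and fatty acid synthesis list, 2 of 26 were lower, 1 was higher, and the median was -0.28. The shares over all genes were 7.63% lower and 7.11% higher. EBP was at -1.11, while SCD was at -1.11 by its brightest probe and at -0.17 and -0.31 by the remaining ones. Of 22 p53 target genes, 1 was lower and 3 higher, with a median of 0.07. RRM2B was at 1.62, TP53INP1 at 1.41, SESN1 at 1.33 and 1.34 by both probes, and CCNG1 was 2.14-fold lower. Ribosomal protein genes (21 measured) and respiratory chain genes (27 measured) had 0 members past 1 in either direction, with medians of 0.01 and -0.03. The respiratory chain gene furthest from 0 was ATP5MC1, at -0.58. Unscaled signals moved every value of this comparison upward by about 0.40.

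Matrix, protease and mesenchymal genes split in both directions. Of 21 measured, 2 were lower, 5 higher and the median was -0.16. COL1A2, a collagen chain, had the lowest value, -2.92, but at signals of 67.4 and 12.3 the SD between its spots was 0.50. COL4A1, a basement membrane collagen, was at -1.06 and -1.03 by its probes. On the higher side, the collagenase MMP1 gave 1283 and 9848, a difference of 2.55 ± 0.094, COL6A1 484 and 2539, a 3.99-fold difference, SNAI1, a repressor of E-cadherin, a difference of 1.06, and CDH2 (N-cadherin) one just past 1. CDH1 (E-cadherin), the adhesion protein of epithelia, had signals of 42530 and 16849, a difference of -1.73. Keratins varied less, with KRT7 at -0.22, KRT8 at -0.09, KRT18 at -0.50 and KRT19 at 0.14, and EPCAM was at -0.01.

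The markers of the CCC lineage did not move together either. The transcription factor PAX8 was at 0.41, whereas NAPSA gave 3835 and 965, a difference of -2.39, with its other probe at -2.41. TFPI2, a protease inhibitor, was at -1.50 and GPX3, a secreted glutathione peroxidase, gave 1726 and 15516, a difference of 2.77. Without CoCl2 these last 3 genes stood at -2.33, -1.26 and 2.38. ANXA4 (-0.25) and SPP1 (-0.63) stayed within 1.

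Most of what separated Sp1-si → CoCl2 from NS-si → CoCl2 cells was also present without CoCl2. Across the 30234 probes that passed the background call on every array, the differences in both pairs, which share no array, had a Pearson correlation of 0.757 across probes, which are not independent of each other. In the pair without CoCl2, 1546 of these probes were lower (5.11%) and 1509 higher (4.99%) by at least 1. Of 2769 probes lower with CoCl2, 88.6% were below 0 without it and 38.8% were lower by at least 1, while 51.5% of all probes were below 0. Of 1816 probes higher with CoCl2, 97.1% were above 0 and 56.9% higher by at least 1.

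With the scaling used here, a larger part of the lower probes than of the higher ones was particular to the arrays with CoCl2. These lower probes were also where probes of 1 gene diverged. Within 0.25 of 0 without CoCl2 were 690 (24.9%) of the lower and 88 (4.85%) of the higher probes. These counts were not repeated under other scalings. Without scaling, 94.5% of the lower and 93.7% of the higher probes had the same sign without CoCl2, so that the asymmetry in sign was absent. Under the other scalings and normexp, the share with the same sign stayed larger for the higher probes. For 219 of the 690 the same gene had other probes on all 4 arrays, and the median of those other probes was lower by at least 1 in 22 cases, against 7.83% among all 11612 probes with such partners. For lower probes that were also lower by at least 1 without CoCl2, the other probes were past -1 in 299 of 434 cases (68.9%). On the higher side the corresponding counts were 13 of 34 (38.2%) and 250 of 445 (56.2%), against 5.99% of all. SP5, NKD2, KLF16, ALDOA, CXCL8 and F7 belong to these 690 probes by the value used for them above. Of the 690, 53.3% had no symbol, compared with 30.8% of all 30234. Their median change with CoCl2 was 0.54 after the control siRNA and -0.69 after Sp1 silencing. The way these probes were chosen fixes that the change after Sp1 silencing lies below that after the control siRNA. What sets these probes apart was not tested, and a lower value from a single probe that was near 0 without CoCl2 has little backing from other probes of the same gene.

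**Figure D3:**
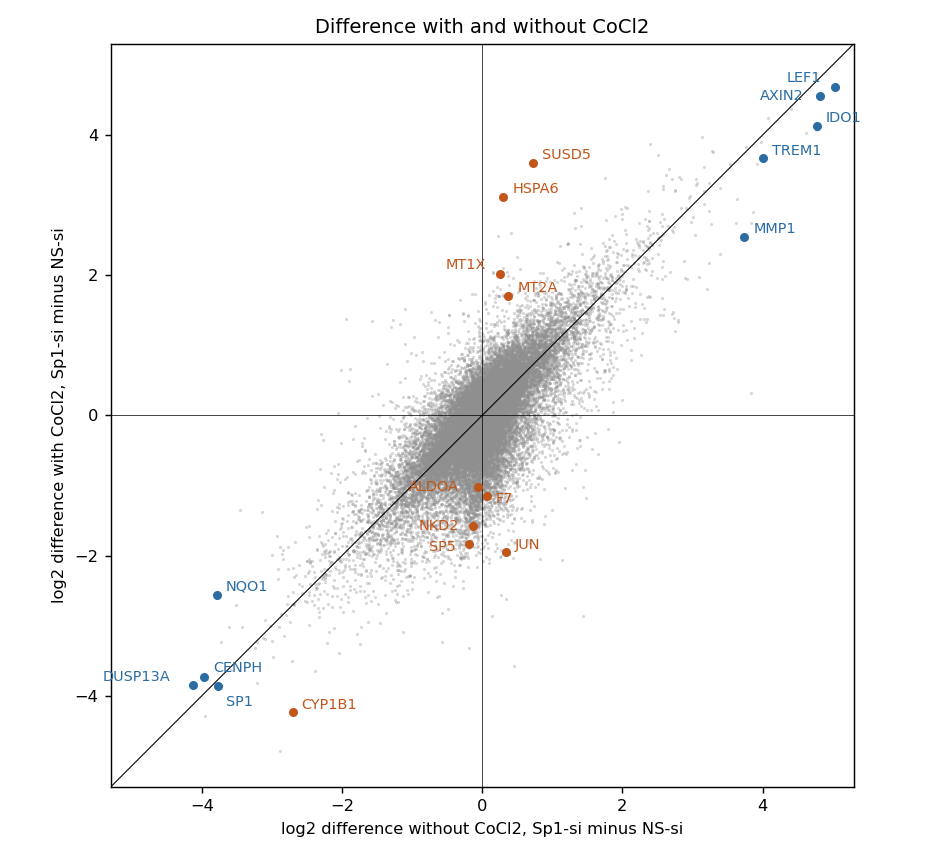
Log2 difference Sp1-si minus NS-si with CoCl2 (vertical axis) against that without CoCl2 (horizontal axis), 1 grey point for each of the 30234 probes that passed on every array, with the line of equal differences. Of the genes in blue, SP1, CENPH, LEF1 and IDO1 lie near this line, while NQO1 and MMP1 differed less with CoCl2 (-2.56 and 2.55) than without it (-3.79 and 3.74). Genes in orange, such as JUN, HSPA6, SUSD5 and MT1X, differed more in the pair with CoCl2.

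Across all genes whose brightest probe was lower by at least 1 and that had further probes, 311 of 390 (79.7%) had every probe below 0 and 168 every probe at -1 or below. For the higher genes, 280 of 341 (82.1%) had every probe above 0 and 152 every probe at 1 or above.

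Some transcripts were well above background on 1 CoCl2 array only, 1610 probes on NS-si → CoCl2 and 480 on Sp1-si → CoCl2, while 8396 were on neither. The lowest signal of a probe well above background was 6.93 on the former and 10.2 on the latter array. With the dim side set to that floor or to its own signal if higher, 349 were at least 2-fold lower and 201 at least 2-fold higher in Sp1-si → CoCl2 cells. PIGR, the receptor that carries immunoglobulins across epithelia, was at least 18.2-fold higher, with a signal of 166 in Sp1-si → CoCl2 cells, and also stood at 77.3 in Sp1-si cells without CoCl2. COL16A1 and ENTPD3 were at least 15.6-fold and 15.3-fold higher and were likewise well above background in Sp1-si cells without CoCl2. On the lower side, a second ENDOU probe was at least 15.8-fold lower, with 123 and 2.95, and the first probe of this gene gave the -4.79 above. SIGLEC1, at least 14.6-fold lower, passed on the NS-si → CoCl2 array alone, with 114 there and at most 2.22 on the other arrays.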

How the data were processed

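RNA of OVSAYO cells was measured on 4 single-colour Agilent 4x44K arrays, all on 1 slide, 1 per condition. The intensities deposited by the authors are the processed signals of Agilent Feature Extraction 10.5.1.1, background-subtracted and detrended within each array but not normalized between arrays. The authors' deposited value table holds the same signals multiplied by 1 constant per array.

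From the deposited intensities, the 75th percentile of each array was subtracted from its log2 signals (control spots left out), outlier spots were dropped and the spots of a probe averaged. A probe counted as well above background when at least 50% of its spots were so called. Differences past 1 on the log2 scale were counted. With 1 array per condition no test was run, the number of arrays limits the precision, and the SD is that between spots (for a probe with 1 spot, the median of 10-spot probes of like signal). Symbols were assigned through RefSeq accessions, which matched 28463 of 29877 spots with one, and each gene was represented by its brightest probe. The array annotation uses an older build, so coordinates are those of the RefSeq promoter table (GRCh38.p14).

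Named were SP1, the 15 lowest and 15 highest genes with at least 2 concordant probes, the 8 lowest and 8 highest with 1 probe, up to 4 members of each list per direction, and genes the study names. The members and lists were chosen with earlier results of these data known. Alternatives were other scalings, the authors' table, filters, thresholds, outlier spots kept, other probes, and normexp with an offset of 50, which used median signals because mean signals are not used here. The counting was tested on simulated data. Python 3.11.15, numpy 2.4.6, pandas 2.3.3, matplotlib 3.10.9, statsmodels 0.14.6, R 4.3.3 and limma 3.58.1 were used.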

Additional observations from a re-analysis of the deposited data

Results flagged for a closer look

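For 10 genes, 1 probe well above background on all 4 arrays was lower by at least 1 in one pair of arrays and higher by at least 1 in the other. These differences between the pairs were not tested. Given here is the log2 difference Sp1-si minus NS-si with CoCl2 minus that without CoCl2. It was -4.29 for APOL3, -3.20 for MIDN, -2.65 for CD99L2, -2.47 for SEC61A2 and -2.22 for CD300LG, which were lower with and higher without CoCl2. It was 2.13 for PDLIM3, 2.56 for TSNAXIP1, 2.62 for SOX5, 2.93 for PAX3 and 3.32 for REXO1, which were higher with and lower without CoCl2.

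All of these probes were dim. The APOL3 probe had signals of 9.42 (NS-si) and 24.5 (Sp1-si) without CoCl2 and of 13.6 in Sp1-si → CoCl2 cells, 7.24-fold below NS-si → CoCl2. For REXO1 the signals were 65.0 and 16.3 without and 18.6 and 63.4 with CoCl2. Where the same gene had other probes well above background on both CoCl2 arrays, these did not follow them. PDLIM3, TSNAXIP1, PAX3 and REXO1 had no such probe. In the pair with CoCl2, the other APOL3 probe was at 2.69, that of CD99L2 at 1.59, that of MIDN at -0.27, that of CD300LG at 0.28, those of SEC61A2 at 0.36 and 0.08, and that of SOX5 at -0.85.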

How the results depend on the processing

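No paired analysis was possible because each condition has 1 array, and leaving out an array was not possible for the same reason. Relative to the 75th percentile, unscaled signals raised the median difference by 0.40 and median scaling by 0.11. The numbers of lower and higher probes were 1276 and 4278 without scaling, 1673 and 973 with normexp (offset 50), 6160 and 4312 at a threshold of 0.6, and 332 and 247 at a threshold of 2, and without the background filter 4429 probes were lower. The other alternatives kept both counts within 1.5 times. SP1 was at -3.47 without scaling, -2.64 with normexp and -3.73 with loess, and between -3.87 and -3.75 otherwise. The shares of lower and higher probes with the same sign without CoCl2 were 94.5% and 93.7% without scaling, 93.8% and 99.4% with normexp, 81.4% and 87.8% without a filter, 90.6% and 98.8% at a mean signal of at least 100, 83.5% and 94.9% at 0.6, and 95.7% and 100% at 2. With quantile normalization 89.8% of the lower probes had the same sign.

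Of the 115 named and measured genes, 109 were past 1, and all 1186 of their values under the other scalings and filters kept their sign. The filters leave the value of a gene as it was, so no sign could change under them. The scalings and normexp moved the median difference by at most 0.40. A change of sign was therefore unlikely for genes past 1, and the kept signs say little. Past 1 remained 93 of 109 without scaling and 98 of 109 with normexp. Another probe turned the direction for SP5 (4.37 and 4.03), NKD2 (0.073) and GINS4 (1.07), and for TNFRSF19 a probe that passed on NS-si → CoCl2 alone. Over the scalings and normexp, the list medians ranged from -0.83 to -0.43 for mitotic, -0.80 to -0.40 for NRF2 target, -0.49 to -0.09 for Sp1-site, 0.47 to 1.04 for interferon-stimulated, 0.61 to 1.72 for Wnt and 1.70 to 2.10 for metallothionein genes. The share of promoters with GGGCGG in the 250 bases before the start was 63.2% for lower and 68.8% for higher genes. The technical SD does not cover differences between cultures.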

Other observations

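Genes with at least 2 probes on all 4 arrays, every probe past 1 in the same direction with CoCl2 and every probe within 0.25 of 0 without it, were looked for after the values were seen. The search covered at most the 5020 genes with at least 2 probes on both CoCl2 arrays, and 5 were found. On the lower side were TNNT2, SRP72 and GRIN1. TNNT2, cardiac troponin T, had signals of 230 (NS-si) and 248 (Sp1-si) without CoCl2 and of 710 and 412 with it, and its probes gave -1.23 and -1.18. SRP72, a subunit of the signal recognition particle that targets nascent proteins to the endoplasmic reticulum, gave -1.04 by both probes, with signals of 3588 and 2290 under CoCl2. The NMDA receptor subunit GRIN1 was at -1.51 and -1.04. Unscaled signals raised the differences by about 0.40, so without scaling the brightest probe of each of these lower genes did not reach -1.

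On the higher side were C1orf115 and ASB13. ASB13, a substrate adaptor of cullin ubiquitin ligases, had signals of 925 (NS-si) and 914 (Sp1-si) without CoCl2 and of 694 and 2752 with it, and its probes gave 1.30 and 1.59 with CoCl2. C1orf115 was at 1.12 and 1.15. Each value rests on 1 culture per condition.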
